A study of Mus musculus with 7 samples.

Results

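The expression landscape of neutrophils from the livers of PBS-treated mice was described without any contrast with other mice. These were all the libraries whose labels name PBS livers, 4 of the 7 libraries in the series, and they are called PBS 5, PBS 6, PBS 7 and PBS 8 after the numbers in their labels. The study asked how the loss of Ly6Chi monocytes affects neutrophils in acetaminophen-induced liver injury (AILI), in which an overdose of the drug acetaminophen (APAP) kills the hepatocytes around the central veins. The PBS mice were the controls of that study: adult male C57BL/6 mice that received i.p. injections of PBS from 12 h before APAP and then every 24 h, and whose liver neutrophils were sorted 24 h after APAP. The other 3 mice received 400 µL of medium that held the CCR2-depleting antibody MC-21 at 29 µg/mL on the same schedule, and their libraries are not described here. Each library held 50000 cells of 1 liver, sorted as CD11b+Ly6CloCX3CR1-GFP-Ly6G+ cells. The gate names a reporter in which GFP marks cells that express the fractalkine receptor CX3CR1, but the labels do not give which mice carried it. The livers had been perfused and digested with collagenase at 37 °C for 45 min before the sort, so the RNA is that of cells kept warm outside the animal for that time. No library came from an uninjured liver, so a level given below is that of cells sorted from injured liver and is not a response to injury. The libraries also held endothelial and hepatocyte markers, described further on, so a level need not be that of neutrophils alone.

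Neutrophils are short-lived granulocytes that mature in the bone marrow and reach sites of tissue death within hours. They store their antimicrobial proteins in granules that are filled in sequence as the cell matures: the azurophil granules at the promyelocyte stage, the specific granules at the myelocyte stage and the gelatinase granules at the band stage. The genes of the early granules are silenced in mature cells, which in tissue transcribe mainly genes for signals, receptors, adhesion and survival. In AILI, neutrophils gather in the necrotic areas around the central veins, where they release reactive oxygen species and proteases, and where they are later cleared by macrophages.

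The 4 libraries listed 16047 genes as RPKM, which scales the reads of a gene to the library's mapped reads and to the length of the transcript, and sums per library lay between 481943 and 502014 RPKM. The reads came from the 3′ ends of transcripts, and RPKM divides them by the length of the whole transcript, so at an equal number of molecules a short transcript receives a higher RPKM than a long one. Levels of different genes are given below per length, as RPKM, so a ratio between genes of unequal length includes this effect. The order of genes was also taken after RPKM had been multiplied by transcript length, a quantity called relative reads. The length was that of the gene's longest annotated transcript, which need not be the length used for RPKM. The steps between the lowest values put 1 RPKM of a 1 kb transcript at 2.77, 3.33, 2.66 and 3.96 reads in PBS 5, PBS 6, PBS 7 and PBS 8, and between 73.0% and 73.5% of low values then came within 0.1 of a whole read. The table therefore holds fractions of reads, and these depths are estimates. Values over the 4 libraries are given in the order PBS 5, PBS 6, PBS 7 and PBS 8, and as mean ± SD (n = 4 livers) elsewhere.

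All 5 defining markers of neutrophils were above 15 RPKM in each library. The alarmin subunits S100a9 and S100a8 reached 20590.2, 12275, 16703 and 14131 RPKM and 3702, 2660.3, 3767 and 2538 RPKM. The receptor of granulocyte colony-stimulating factor, Csf3r, was at 287, 269.6, 328 and 320.0 RPKM and the chemokine receptor Cxcr2 at 159.6, 221, 200.2 and 149 RPKM. The gated antigen itself, Ly6g, was at 26.7, 16.3, 57.5 and 29.6 RPKM, lower than the other 4 and with the widest relative spread among them (CV 54.2%). The labelled cell type therefore had its defining markers in every library, beside the endothelial and hepatocyte markers described further on.

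The libraries did not stand equally far from each other. Principal components of log2(RPKM + 1) were taken over the 6012 genes whose mean reached 5 RPKM. The first held 52.7% of the variance. Its scores set PBS 6 and PBS 7 (20.6 and 12.3) against PBS 5 and PBS 8 (-21.4 and -11.4). GC content moved with this split. Among genes whose mean reached 5 RPKM, the fifth of genes with the lowest GC content was higher in PBS 6 and PBS 7 than in PBS 5 and PBS 8 by a median log2 difference of 0.12, the median in the fifth with the highest GC content was -0.15, and the values in between were -0.01, -0.07 and -0.11. The labels name no batch, and what GC content contributed to the levels of single genes was not tested. Across the 9749 genes whose mean reached 1 RPKM, Pearson's r between libraries ranged from 0.953 (PBS 5 with PBS 6) to 0.974 (PBS 5 with PBS 8). These coefficients run across genes of the same table, which are not independent replicates.

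Expression was concentrated in few genes. S100a9 alone held 4.10, 2.54, 3.39 and 2.93% of the summed RPKM, and the 10 highest genes together held 15.6, 15.4, 16.4 and 14.9%. The 100 genes of highest mean held 42.2 ± 1.38% and the 1000 highest 77.8 ± 0.951%. A set of 150, 169, 156 and 182 genes was enough to hold 50% of the sum, and between 2406 and 2679 genes held 90%. Of the 16047 genes, 9749 had a mean of at least 1 RPKM, 4251 of at least 10, 704 of at least 100 and 67 of at least 1000 RPKM, while 766 were listed at 0 in all 4 libraries. The median over all genes was 2.07, 2.27, 2.16 and 2.29 RPKM, so S100a9 stood more than 3 orders of magnitude above the median gene in each library. On relative reads the concentration was lower, with 30.0% of the sum in the 100 highest genes.

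**Figure D1:**
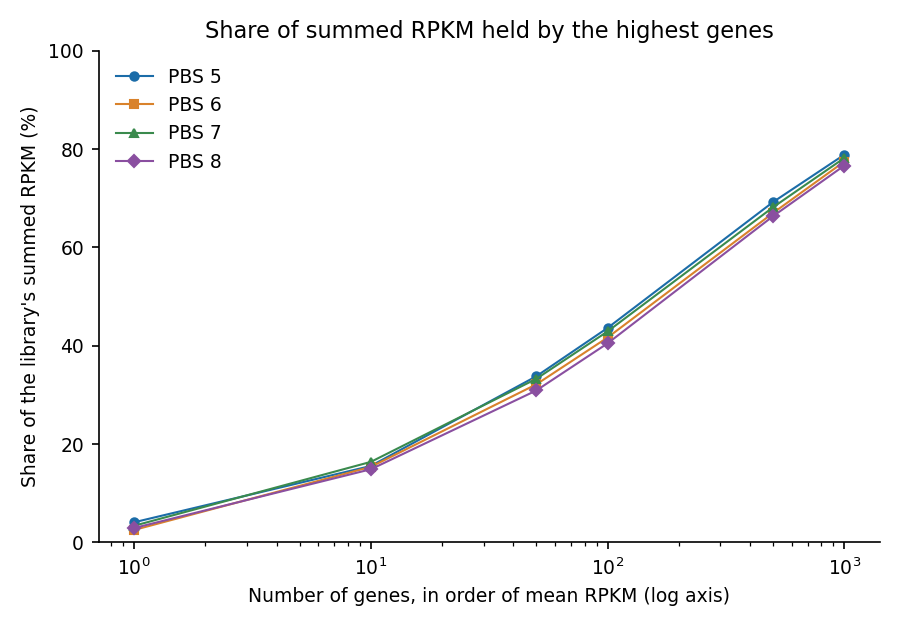
Share of each library's summed RPKM (y axis, %) held by the 1, 10, 50, 100, 500 and 1000 genes of highest mean RPKM (x axis, log scale), 1 line per PBS library. The lines lie close together, between 40.5% and 43.6% at 100 genes and between 76.6% and 78.9% at 1000 genes, and PBS 8 is the lowest from 10 genes on.

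The top of the order mixed an alarmin, inflammatory messages, iron storage and the machinery shared by all cells. S100a9 was the highest gene in each of the 4 libraries (15925 ± 3601 RPKM). Cxcl2, a chemokine that draws neutrophils through CXCR2, came next at 7687, 11967, 12755 and 9603 RPKM, with PBS 5 the lowest library and PBS 6 and PBS 7 the highest. Ftl1 and Fth1, the light and heavy chains of ferritin, stood at 8988 ± 1346 RPKM and 7056 ± 386 RPKM. The fifth was Il1b, the precursor of the cytokine interleukin-1β, at 7174, 5868, 8005 and 6954 RPKM. What the warm digestion contributed to the levels of Cxcl2 and Il1b was not tested.

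Below these 5 genes the order held the ribosomal proteins Rplp1 (6059 ± 450.3 RPKM) and Rpl41 (5028 ± 312 RPKM), the actin-sequestering peptide thymosin β4, Tmsb4x (5539.9 ± 718 RPKM), the adaptor of activating receptors Tyrobp (5085 ± 1088 RPKM) and the granule proteoglycan serglycin, Srgn (5006 ± 909.7 RPKM). They were followed by Actb (4259 ± 1157 RPKM), by the resistin-like Retnlg, at 5402, 2069, 4178 and 2515 RPKM, and by Igfbp7, a secreted protein of endothelial cells, at 3813, 3609.8, 2643 and 3758 RPKM. Retnlg was higher in PBS 5 and PBS 7 than in PBS 6 and PBS 8, and its spread (CV 43.4%) was the widest of the 30 highest genes. B2m, the light chain of MHC class I (3371 ± 604 RPKM), S100a8 (3167 ± 658 RPKM) and G0s2, an inhibitor of adipose triglyceride lipase (2842 ± 808 RPKM), came after it.

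Also among the 30 highest genes were 4 further ribosomal proteins (Rpl13, Rps9, Rpl32 and Rpl19, from 2208 RPKM to 2891 RPKM), the leukocyte surface peptide Cd52, the phosphatase Dusp1, Tpt1, Ifitm1, the actin-severing cofilin Cfl1, Gpihbp1, and the genes Rpl37rt and Rplp2-ps1. Cd52 was at 2841, 2566, 2751 and 2714 RPKM, the narrowest spread of the 30 (CV 4.21%). Gpihbp1, which anchors lipoprotein lipase to capillary endothelium, was at 3262, 1490.0, 1383 and 2342 RPKM, with PBS 5 and PBS 8 above PBS 6 and PBS 7. Rplp2-ps1 and Rpl37rt are near-identical copies of ribosomal protein genes. In the table Rplp2-ps1 exceeded its parent Rplp2 by 6.18 to 9.01 times and Rpl37rt exceeded Rpl37 by 9.51 to 10.3 times, and how reads that fit both copies were divided between them is not given in the sources used here, so the level of each copy is uncertain.

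The order within the 30 was not resolved gene by gene. Each of the 29 pairs of neighbours overlapped in their ranges over the 4 libraries, and 23 of the 30 genes were among the 30 highest of every library. By relative reads 18 of the 30 stayed in the 30 highest, and the first 5 were then Cxcl2, Il1b, Ftl1, Srgn and S100a9. The longest annotated transcript was 519 bases for S100a9 and 1830.0 bases for Cxcl2. Rpl41 had no length and could not be ranked this way. Relative reads depend on which transcript is taken, and no other choice was tried. The 12 genes that entered by this measure were H2-D1, Ppia, Arpc1b, Zfp36, Fxyd5, Gng5, H3f3a, Actg1, Nr4a1, Rpl18, Cebpb and Sparc, all of which had at least 797 RPKM as a mean. The median transcript length was 864 bases in the 30 highest genes by RPKM, 1759.5 bases in the 30 highest by relative reads and 2844.5 bases in all genes of at least 1 RPKM. Short transcripts were therefore over-represented at the top by RPKM.

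**Figure D2:**
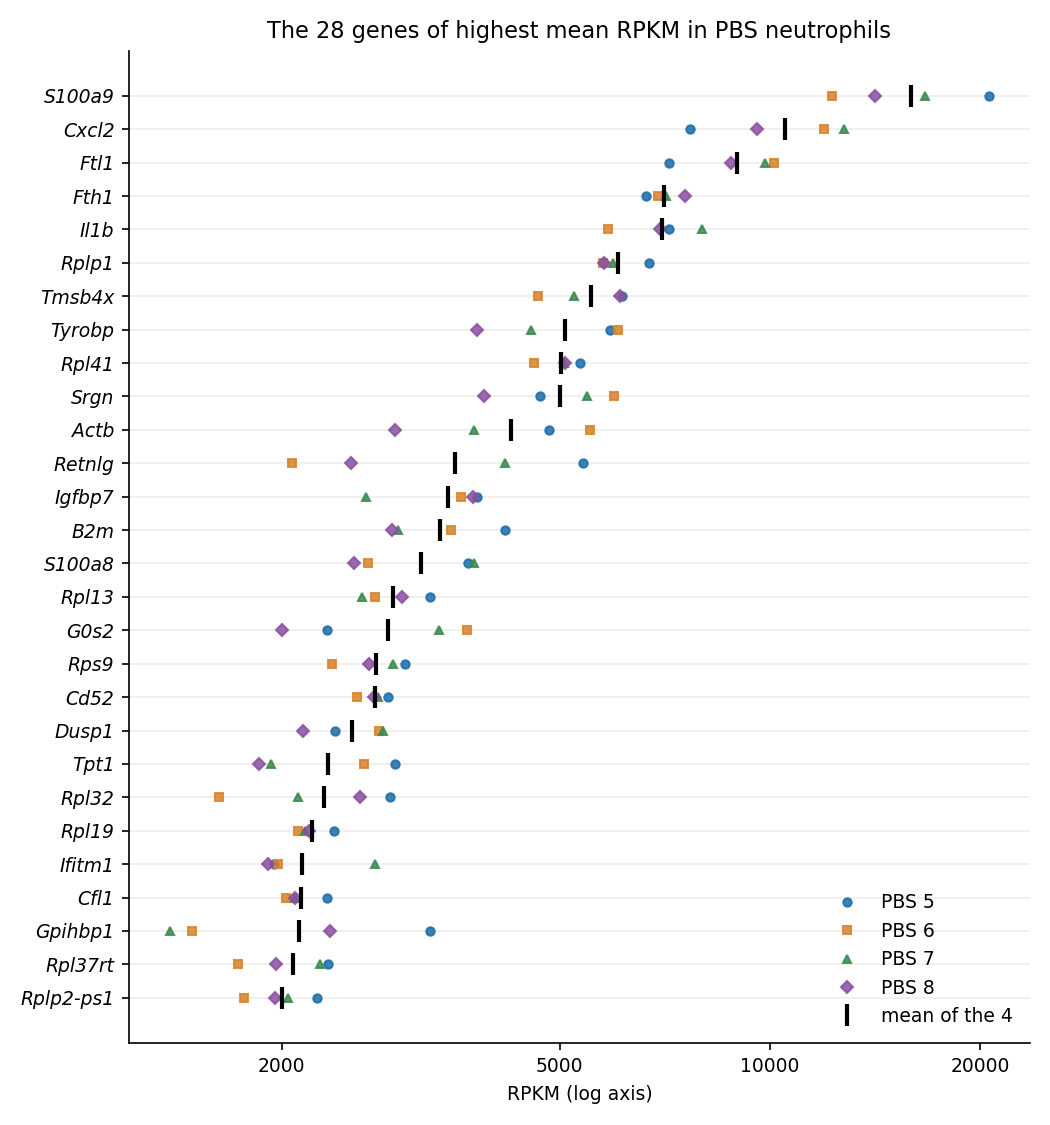
RPKM (x axis, log scale) of the 28 genes of highest mean RPKM, in order of their mean from the top, with 1 symbol per PBS library and a vertical bar at the mean of the 4. S100a9 lies between 12275 and 20590.2 RPKM, Rplp2-ps1 at the bottom between 1763 and 2244 RPKM, and the symbols of each gene overlap with those of its neighbours.

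The promoters of 4 leading genes are shown because these genes carried the alarmin and the cytokine signal of the landscape. S100a9 and S100a8 lie at chr3:90496554-90499643 on the minus strand and chr3:90472993-90473956 on the plus strand of mm9, Cxcl2 at chr5:91332897-91334935 on the plus strand and Il1b at chr2:129190306-129196875 on the minus strand. The sequences are from RefSeq on GRCm38.p6, 250 bases before to 50 bases after the gene's start, written 5′ to 3′ on the strand of the gene, and lie at chr3:90695672-90695971, chr3:90668821-90669120, chr5:90903649-90903948 and chr2:129371090-129371389. Capitals mark the letters TATAAA and, in Cxcl2, the NF-κB motif (GGG, any 2 bases, TTTCC).
S100a9: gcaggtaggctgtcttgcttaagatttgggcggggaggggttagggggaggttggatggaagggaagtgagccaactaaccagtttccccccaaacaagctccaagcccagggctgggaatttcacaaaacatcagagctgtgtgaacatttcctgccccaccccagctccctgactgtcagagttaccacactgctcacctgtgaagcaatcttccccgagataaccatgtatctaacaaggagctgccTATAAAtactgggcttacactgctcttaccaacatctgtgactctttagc
S100a8: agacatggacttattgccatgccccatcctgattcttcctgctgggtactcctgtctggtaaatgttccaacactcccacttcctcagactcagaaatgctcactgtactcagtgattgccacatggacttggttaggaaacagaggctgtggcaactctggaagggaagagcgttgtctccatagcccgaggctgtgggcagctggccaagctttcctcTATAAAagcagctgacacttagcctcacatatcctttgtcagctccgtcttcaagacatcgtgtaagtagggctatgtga
Cxcl2: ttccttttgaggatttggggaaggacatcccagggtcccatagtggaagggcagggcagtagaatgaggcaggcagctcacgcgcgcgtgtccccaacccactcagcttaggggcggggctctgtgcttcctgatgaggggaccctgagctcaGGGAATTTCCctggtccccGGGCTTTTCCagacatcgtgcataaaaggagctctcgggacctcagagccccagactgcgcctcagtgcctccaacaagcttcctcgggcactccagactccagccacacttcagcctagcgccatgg
Il1b: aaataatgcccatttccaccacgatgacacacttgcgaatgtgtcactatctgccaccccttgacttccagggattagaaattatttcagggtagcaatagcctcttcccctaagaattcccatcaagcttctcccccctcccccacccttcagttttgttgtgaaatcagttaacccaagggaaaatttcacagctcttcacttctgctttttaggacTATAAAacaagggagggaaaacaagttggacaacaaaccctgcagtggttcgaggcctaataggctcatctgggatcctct
TATAAA, read on both strands, stood at bases 221 to 226 in S100a8, 220 to 225 in Il1b and 251 to 256 in S100a9 and was not found in the window of Cxcl2. Cxcl2 held the NF-κB motif at bases 154 to 163 and 173 to 182.

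The same letters were counted on both strands in the promoters of all genes with 1 entry in the table, 9824 of them matched. TATAAA occurred in 8.47% of these 9824 promoters, in 9 of the 22 promoters matched for neutrophil identity genes (S100a9, S100a8, Msrb1, Lrg1, Ifitm2, Fpr2, Fpr1, Mmp8 and Cd177), in 6 of the 19 matched for chemokine and cytokine genes, in 28.8% of the 66 matched among the 100 highest genes and in 11.5% of 52 ribosomal protein promoters. The NF-κB motif occurred in 1.71% of the 9824, in 6 of 19 promoters of chemokine and cytokine genes (Cxcl2, Cxcl3, Csf1, Ccl9, Cxcl1 and Il6) and in 0 of 22 identity genes. The C/EBP motif TTNNGNAA occurred in 32.7% of the 9824, in 13 of the 22 identity genes and in 10 of the 19 chemokine and cytokine genes. The PU.1 motif GAGGAA was in 27.0% of the 9824, in 10 of 22 and in 6 of 19, and the AP-1 motif TGANTCA in 5.51% of the 9824, in 0 of 22 and in 6 of 19. The CRE motif TGACGTCA was in 3.01% of the 9824 and in 0 of 22 identity and 0 of 19 chemokine and cytokine promoters. In the 66 promoters matched among the 100 highest genes, C/EBP (27.3%), PU.1 (21.2%) and AP-1 (1.52%) were below their share of the 9824. NF-κB (6.06%) and CRE (7.58%) were above it there. Of 20 promoters matched for immediate early genes, C/EBP was in 1, PU.1 in 5, AP-1 in 0, and NF-κB and CRE in 2 each. The motifs can overlap each other, and a match describes the letters only.

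Functions were compared as gene lists by their share of each library's summed RPKM. The largest shares were those of ribosomal proteins (12.3 ± 0.772%), neutrophil identity genes (8.45 ± 1.15%), S100 proteins (4.61 ± 0.769%), the actin cytoskeleton (4.36 ± 0.130%), chemokine and cytokine messages (4.28 ± 0.603%), iron and heme handling (3.74 ± 0.349%), nuclear subunits of oxidative phosphorylation (2.83 ± 0.151%) and immediate early genes (2.33 ± 0.215%). The lists share genes, S100a9 for example belonging to the identity and the S100 list, so the shares do not add up. At the other end were the azurophil granule proteins (0.0501 ± 0.00609%) and proliferation genes (0.0837 ± 0.00571%). On relative reads the share of the identity list was 4.63%, that of the S100 list 1.42% and that of ribosomal proteins 7.04%, whereas chemokine and cytokine messages remained close at 4.03% and the actin list at 3.98%. Iron and heme handling was then at 2.20% and oxidative phosphorylation at 1.85%, both below immediate early genes at 2.87%, the reverse of their order by RPKM.

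**Figure D3:**
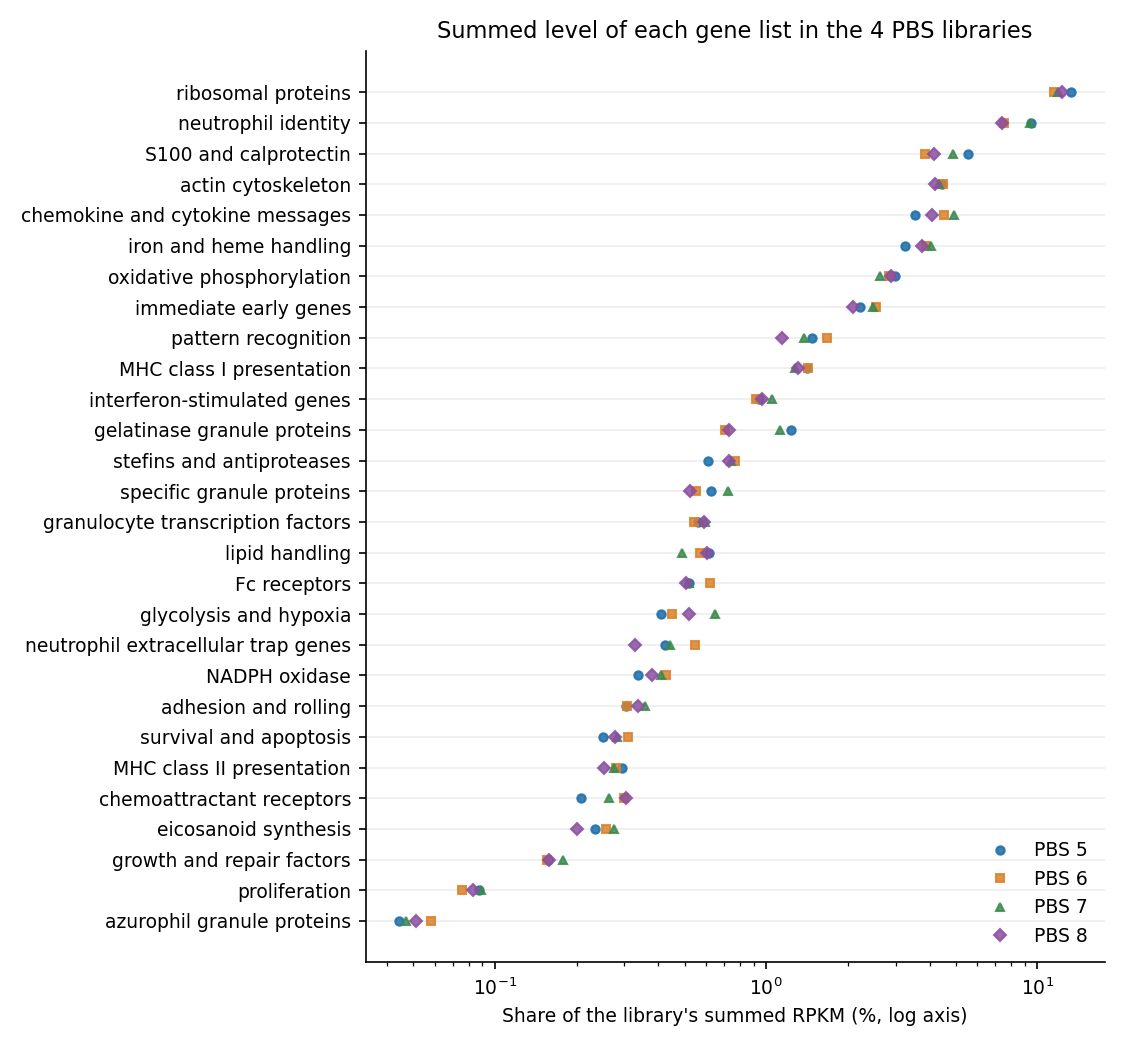
Share of each library's summed RPKM (x axis, %, log scale) for 28 gene lists, ordered by mean share, with 1 symbol per PBS library. The symbols of a list lie close together against the span between lists, which runs from 0.0501% for azurophil granule proteins to 12.3% for ribosomal proteins, and gelatinase granule proteins show 2 libraries above 1% and 2 below.

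Neutrophil identity genes were measured for 29 of 30 members, all 29 of them above 1 RPKM, with a median member at 315 RPKM against a median of 2.20 RPKM over all genes. Their shares were 9.50, 7.52, 9.38 and 7.40% of the libraries. Beside the genes named above, Slpi, the secretory leukocyte protease inhibitor, was at 1458 ± 138 RPKM, Msrb1, a reductase of oxidized methionine, at 1205 ± 144 RPKM, and Lrg1, a leucine-rich glycoprotein of granules, at 1182 ± 272 RPKM. The membrane proteins Ifitm1 and Ifitm2 stood at 2139.5 ± 388 RPKM and 1120.1 ± 138 RPKM. The decoy receptor of interleukin-1, Il1r2, was at 273, 224, 380.2 and 414 RPKM, and histidine decarboxylase, Hdc, at 289.7, 220.3, 346 and 365 RPKM. At the low end of the list were Mmp8, the neutrophil collagenase, at 5.90, 16.3, 40.2 and 5.15 RPKM, and Cd177, a surface protein of a subset of neutrophils, at 11.8, 7.36, 18.7 and 8.65 RPKM.

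The S100 list rested on its first gene, since S100a9 made up 70.4% of its summed level. The ratio of S100a9 to S100a8, whose proteins form the heterodimer calprotectin, was 5.56, 4.61, 4.43 and 5.57 per length. S100a6 stood at 1833 ± 321 RPKM, S100a11 at 821 ± 148 RPKM, S100a10 at 339 ± 81.4 RPKM and S100a4 at 299 ± 48.7 RPKM. The brain-type S100b (0.548 RPKM) and the intestinal S100g (1.18 RPKM) were near the low end of the table.

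The median member of the 3 classes of granule was at 2.44 RPKM for azurophil, 37.2 RPKM for specific and 138 RPKM for gelatinase granule proteins. Azurophil granule proteins, which are made earliest, thus stood close to the median gene. Myeloperoxidase, Mpo, was listed at 0, 0, 0 and 0.198 RPKM, cathepsin G, Ctsg, at 0, 0, 0 and 0.253 RPKM, and Ms4a3 and Bpi at 0 in all 4 libraries. Proteinase 3, Prtn3, was at 3.73, 2.17, 3.88 and 3.12 RPKM. The list's share came from Cd63, a membrane protein of many lysosome-related organelles (131 ± 29.2 RPKM), and Lyz2, lysozyme (106 ± 10.8 RPKM), which myeloid cells keep expressing. Elane was not in the table.

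Specific granule proteins had a share of 0.606 ± 0.0883%. Lipocalin 2, Lcn2, which binds bacterial siderophores, led them at 1225, 542, 1436 and 616 RPKM, with PBS 5 and PBS 7 above PBS 6 and PBS 8. Haptoglobin, Hp, was at 738, 762, 868 and 682 RPKM and the chitinase-like Chil3 at 230.1, 157, 97.0 and 85.9 RPKM. In contrast, lactoferrin, Ltf, was at 1.06, 5.91, 4.94 and 10.2 RPKM and cathelicidin, Camp, at 6.04, 49.6, 20.7 and 43.4 RPKM. These genes of one granule thus spanned a wide range, with Lcn2 between 60.3 and 1161 times Ltf, and for Ltf and Camp the lowest library was PBS 5 whereas Lcn2 was high in it. Ngp, the neutrophilic granule protein, was at 65.6 ± 16.1 RPKM.

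Gelatinase granule proteins had shares of 1.23, 0.706, 1.12 and 0.727%. Retnlg made up 76.0% of the list's summed level, and the 2 higher libraries are those in which Retnlg was high. Gelatinase B, Mmp9, was at 230.0, 349, 368 and 312 RPKM, the metal transporter Slc11a1 at 224 ± 19.3 RPKM, the integrin chain Itgb2 at 218 ± 39.6 RPKM and the sheddase Adam8 at 148 ± 38.6 RPKM. Arginase 1, Arg1, which is also an enzyme of the hepatocyte urea cycle, was at 21.8, 267, 169 and 58.4 RPKM. PBS 6 was its highest library, as it was for the summed hepatocyte markers (0.165, 0.342, 0.162 and 0.238%), but PBS 7, the lowest library of those markers, came next for Arg1, and what hepatocyte RNA contributed to Arg1 was not tested.

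Stefins and antiproteases held 0.712 ± 0.0678% (0.366% on relative reads). After Slpi came cystatin B, Cstb, at 899 ± 242 RPKM, cystatin C, Cst3, at 843 ± 89.1 RPKM, and the pro-resolving annexin Anxa1 at 188, 189, 261 and 132 RPKM. The myeloid stefins were far lower, with Stfa2l1 at 8.97 ± 3.18 RPKM, Stfa2 at 4.29 ± 2.57 RPKM, Stfa1 at 3.18 ± 3.66 RPKM and BC117090 listed at 0 in each library. Timp1 and Timp2, inhibitors of metalloproteinases, were at 21.3 ± 7.16 RPKM and 28.7 ± 4.56 RPKM.

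All 7 measured subunits of the phagocyte NADPH oxidase, the enzyme that makes superoxide, were above 10 RPKM in every library, and the list held 0.388 ± 0.0399%. The small membrane subunit p22phox, Cyba, was the highest at 675, 845, 801 and 778 RPKM. The large, catalytic membrane subunit gp91phox, Cybb, was the lowest at 16.0, 14.3, 19.5 and 11.6 RPKM, and Cyba exceeded it 41.2 to 66.9 times per length. Among the cytosolic subunits, Ncf4 was at 255 ± 30.3 RPKM and Ncf1 at 171 ± 34.7 RPKM. The GTPases Rac2 and Rac1 were at 316 ± 61.7 RPKM and 278 ± 30.2 RPKM.

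Chemokine and cytokine messages were dominated by the first 2 of 31 genes. Cxcl2 made up 50.2% of the list's summed level, and the list had 23 of 31 members of at least 1 RPKM and a median member at 28.9 RPKM. The macrophage inflammatory proteins Ccl3 and Ccl4 were at 440.4, 821, 483 and 697 RPKM and 356, 698, 501 and 838 RPKM, and their ratio lay between 0.832 and 1.24. Ccl6, a constitutive chemokine of myeloid cells, was at 671, 698, 909 and 446 RPKM. The monocyte attractant Ccl2, the ligand of CCR2, was at 371, 435, 307 and 111 RPKM, with PBS 8 apart below the other 3. Oncostatin M, Osm, a cytokine that acts on hepatocytes and stroma, was at 427, 419, 533 and 389 RPKM and tumor necrosis factor, Tnf, at 101, 128, 145 and 105 RPKM. For these messages too, expression in the liver and during the warm digestion cannot be told apart here.

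Close relatives of the leading cytokines were much lower. Cxcl1 and Cxcl3, which use the same receptor as Cxcl2, were at 16.4, 25.3, 32.9 and 17.0 RPKM and 84.6, 171, 198 and 127 RPKM, so that Cxcl2 exceeded Cxcl1 by 388 to 564 times and Cxcl3 by 64.4 to 90.9 times. Interleukin-1α, Il1a, was at 1.28, 4.87, 3.05 and 1.41 RPKM, and the receptor antagonist Il1rn at 54.4, 146, 86.1 and 105 RPKM, with Il1b at 40.3 to 132 times Il1rn. Il6 was listed above 0 only in PBS 6 (0, 1.32, 0 and 0 RPKM), Il10 was at 0, 0.460, 0.576 and 0 RPKM, and Csf3, the neutrophil growth factor, was listed at 0 in all 4 libraries. Il12b, Csf2, Lif and Il12a were also under 1 RPKM in the mean, at 0.0750, 0.301, 0.394 and 0.430 RPKM.

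The receptors that guide neutrophils were present at moderate levels, with 14 of 15 at 1 RPKM or more and a median member at 28.6 RPKM. Highest was Ccrl2, a non-signaling receptor that presents the attractant chemerin, at 405, 694, 593 and 782 RPKM. Cxcr4, which retains neutrophils in the marrow and is known from aged neutrophils, was at 175, 173, 172 and 224 RPKM, and the ratio of Cxcr2 to Cxcr4 was 0.911, 1.28, 1.16 and 0.667, on either side of 1. The receptors for platelet-activating factor and leukotriene B4, Ptafr and Ltb4r1, were at 80.0 ± 16.1 RPKM and 60.1 ± 13.2 RPKM. The formyl peptide receptors Fpr2 and Fpr1 stood at 54.0 ± 15.9 RPKM and 31.7 ± 3.83 RPKM, the C5a receptor C5ar1 at 28.6 ± 4.89 RPKM and Cxcr1 at 15.1 ± 5.70 RPKM. The monocyte receptor Ccr2 was at 1.91, 3.26, 2.30 and 2.18 RPKM.

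Pattern recognition genes held 1.42 ± 0.222%, of which the adaptor Tyrobp made up 73.3%, and their share by relative reads was 0.762%. The lipopolysaccharide co-receptor Cd14 was at 391, 671, 800.4 and 581 RPKM, lowest in PBS 5. The C-type lectins Clec4d, Clec4n and Clec4e were at 470.2 ± 57.3 RPKM, 89.2 ± 35.7 RPKM and 65.2 ± 30.4 RPKM, and the amplifying receptors Trem3 and Trem1 at 164 ± 31.0 RPKM and 162 ± 33.3 RPKM. Among Toll-like receptors, Tlr2, the sensor of bacterial lipopeptides, was at 43.2 ± 6.80 RPKM and Tlr13, a sensor of bacterial ribosomal RNA, at 26.4 ± 5.76 RPKM. Tlr4, the lipopolysaccharide receptor, was at 3.40 ± 0.469 RPKM, with Tlr2 at 11.4 to 14.8 times Tlr4, and its partner Ly96 was listed at 0, 0.498, 0 and 0.419 RPKM. Tlr3 and Tlr5 were at or under 0.235 RPKM in each library. The inflammasome sensor Nlrp3 was at 55.5 ± 9.08 RPKM and the adaptor Pycard at 14.7 ± 4.11 RPKM, whereas caspase-1, Casp1, which cleaves the IL-1β precursor, was listed at 0, 1.59, 0 and 0.334 RPKM.

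Fc receptors for immunoglobulin held 0.541 ± 0.0521%. Their shared signaling chain, Fcer1g, was at 1543, 1427, 1632 and 1373 RPKM. The low-affinity activating receptors Fcgr3 and Fcgr4 were at 403 ± 59.4 RPKM and 87.3 ± 8.10 RPKM, with Fcgr3 4.21 to 5.31 times Fcgr4, and the high-affinity receptor Fcgr1 at 10.1 ± 3.15 RPKM. The inhibitory receptor Fcgr2b was at 413, 724, 248 and 317 RPKM. This gene is also a marker of liver sinusoidal endothelium and stands in that list too, and what each cell type contributed to it was not tested.

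Adhesion genes were all above 1 RPKM, with a median member at 59.5 RPKM, and their share was larger on relative reads (0.665% against 0.326 ± 0.0248%). PSGL-1, Selplg, the ligand of selectins, was at 459.8, 363, 558 and 487 RPKM. The β2 integrins Itgam and Itgal, which pair with Itgb2, were at 63.7 ± 14.8 RPKM and 61.0 ± 16.4 RPKM. Pecam1 and Icam2, which endothelium also expresses, were at 179 ± 27.4 RPKM and 123 ± 23.8 RPKM. The α4 integrin, Itga4, was at 3.56 ± 1.21 RPKM.

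Immediate early genes, which cells switch on within minutes of a stimulus, had a median member at 135 RPKM, with 25 of 26 at 1 RPKM or more and 17 at 100 RPKM or more. Dusp1, a phosphatase of MAP kinases, was at 2381, 2755, 2791 and 2145 RPKM, Zfp36, tristetraprolin, which destabilizes cytokine messages, at 2004, 2037, 1969 and 1462 RPKM, and Nfkbia, the inhibitor of NF-κB, at 983, 1684, 1230.3 and 997 RPKM. The AP-1 genes Junb and Fos were at 905 ± 117 RPKM and 542 ± 75.0 RPKM, Jun at 126 ± 7.27 RPKM and Egr1 at 391 ± 31.9 RPKM. Nr4a1 reached 1073, 841, 1033 and 1122 RPKM and Ier3 869 ± 87.4 RPKM. At the low end were Egr2 (3.08 ± 2.39 RPKM) and Dusp5 (0.353 RPKM). The livers were digested warm before the sort, which these genes are known to respond to, and expression in the liver and during digestion cannot be told apart here.

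The transcription factor list was led by Cebpb. This factor of emergency granulopoiesis and of macrophages was at 1441, 1436, 1581 and 1621 RPKM, followed by the Krüppel-like factor Klf2 at 412, 259.6, 338 and 241 RPKM and by Cebpd at 234 ± 12.3 RPKM. PU.1, Spi1, the master factor of myeloid cells, was at 139, 138, 154 and 154 RPKM, a CV of 6.15%. The factors of early and middle granulopoiesis were lower, with Cebpe at 8.07 ± 2.43 RPKM, Cebpa at 4.44 ± 1.95 RPKM, Gfi1 at 0.142 RPKM and Myb at 0.125 RPKM. The MYC antagonist Mxd1 was at 169 ± 31.8 RPKM and Myc at 13.8 ± 2.87 RPKM. Gata1, a factor of erythroid cells, mast cells and eosinophils, was listed above 0 only in PBS 6 (0.0395 RPKM in the mean).

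Cell cycle genes gave a list near the median gene, at 2.26 RPKM for its median member. Mki67, which marks cycling cells, was at 0.503, 0.298, 0.187 and 0.401 RPKM, Top2a at 0.416, 0.230, 0.144 and 0.194 RPKM, and Ccnb1 was listed at 0 in all 4 libraries. The members with levels above 10 RPKM were Tubb5 (239.8 ± 35.8 RPKM), Pcna (61.7 ± 15.3 RPKM), Hmgb2 (51.9 ± 4.71 RPKM), Mcm3 (16.0 ± 4.10 RPKM) and Stmn1 (12.7 ± 5.85 RPKM), of which Tubb5 made up 58.4% of the list's summed level.

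Survival and death genes were led by Bax (285, 283, 263 and 298 RPKM), which opens the outer mitochondrial membrane, and Mcl1 (242, 285, 306 and 273 RPKM), the antiapoptotic protein on which neutrophils depend. Their ratio, Mcl1 to Bax, was 0.851, 1.01, 1.16 and 0.914. Among the other antiapoptotic genes, the near-identical A1 genes Bcl2a1b, Bcl2a1a and Bcl2a1d were at 147 ± 56.6 RPKM, 43.9 ± 18.7 RPKM and 43.4 ± 15.9 RPKM, their split being uncertain because the copies share reads, and Bcl2l1 was at 40.6 ± 6.65 RPKM. Bcl2 itself was at 4.13, 4.49, 4.55 and 4.67 RPKM, with Bcl2a1b 23.3 to 50.9 times as high. The death receptor Tnfrsf1a was at 271 ± 8.69 RPKM, Fas at 12.9 ± 5.90 RPKM, and the ligand Fasl was listed above 0 only in PBS 7 (0.0486 RPKM in the mean).

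Growth and repair factors held 0.162 ± 0.0105%, of which Osm made up 55.5%. Progranulin, Grn, was at 113, 119, 123 and 167 RPKM. Vegfa, the angiogenic factor that hypoxia induces, was at 8.41, 10.9, 13.6 and 12.6 RPKM and its relative Vegfb at 41.1 ± 6.06 RPKM. The platelet-derived growth factor genes Pdgfa and Pdgfb were at 31.8 ± 16.1 RPKM and 16.4 ± 4.02 RPKM and the EGF family member Hbegf at 26.2 ± 9.53 RPKM. The hepatocyte mitogen Hgf was at 2.09, 2.10, 1.18 and 2.01 RPKM.

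All 26 measured genes of glycolysis and hypoxia had a mean above 1 RPKM, and the list's shares were 0.409, 0.448, 0.649 and 0.518%, with PBS 7 the highest. Pkm, pyruvate kinase, was at 462, 357, 584 and 636 RPKM, Aldoa, aldolase, at 247, 327, 532 and 333 RPKM, and Ldha, lactate dehydrogenase, at 261, 281, 372 and 272 RPKM. Aldoa, Ldha, Pgk1 (159.7, 187, 292 and 173 RPKM) and the lactate exporter Slc16a3 (107, 104, 220.5 and 155 RPKM) each had PBS 7 as the highest library. The neutrophil isoform of hexokinase, Hk3, was at 46.5 ± 12.6 RPKM against 5.67 ± 1.14 RPKM for Hk2. Eno1 was listed at 3.09 RPKM and Gapdh at 147 ± 29.1 RPKM, low for enzymes of the same chain. Both genes have many near-identical copies in the genome. How reads that fit the copies were counted is not given in the sources used here, and its effect was not tested. The nuclear subunits of oxidative phosphorylation had 81 of 84 members at 1 RPKM or more and a median member at 106 RPKM, led by Cox6a1 (1328 ± 189 RPKM) and Cox5b (571 ± 22.6 RPKM). No gene of the mitochondrial genome was in the table.

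Iron and heme genes were led by the ferritins, with Fth1 at 0.681 to 0.928 times Ftl1. Heme oxygenase 1, Hmox1, which breaks down heme, was at 190.0, 132, 311 and 137 RPKM with PBS 7 the highest, and biliverdin reductase B, Blvrb, at 62.1 ± 7.09 RPKM. The exporter ferroportin, Slc40a1, was at 9.30 ± 6.23 RPKM, with PBS 6 the highest at 18.6 RPKM. The transferrin receptor, Tfrc, was listed at 0.221, 0.428, 0 and 0.462 RPKM. Storage genes thus stood in the top 5 of the table and the uptake receptor under 1 RPKM.

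Ribosomal proteins were the list with the largest share (13.3, 11.5, 11.9 and 12.3%), 24 of them among the 100 highest genes, and a median member at 439 RPKM. Their levels ranged from 0.458 RPKM (Rpl39l, a paralogue of Rpl39) to 6059 RPKM (Rplp1). Rpl30 was listed at 2.51 RPKM and Rps15a at 3.77 RPKM. Ribosomal protein genes have many processed copies in the genome, and how reads from them were counted is not given in the sources used here. The actin cytoskeleton list had the narrowest relative spread of its share of the lists shown (CV 2.98%), with all 32 genes above 1 RPKM and a median member at 212 RPKM. After Tmsb4x, Actb and Cfl1 came Actg1 (1561 ± 325 RPKM), Myl6 (1394 ± 119 RPKM) and Arpc1b, a subunit of the Arp2/3 complex (1166 ± 104 RPKM).

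Antigen presentation genes of class I held 1.36 ± 0.0704% and those of class II 0.275 ± 0.0170%. The class I heavy chains H2-D1 and H2-K1 were at 1550.2, 2009.9, 2026 and 1915 RPKM and 711, 653, 749 and 786 RPKM. Of the class II genes, H2-Aa was at 644, 491, 469.5 and 454 RPKM, H2-Eb1 at 216, 121, 117 and 165 RPKM, H2-Ab1 at 162, 159.8, 132 and 116 RPKM and the invariant chain Cd74 at 129, 115, 104 and 108 RPKM. The class II transactivator, Ciita, was at 0.724, 0.751, 0.313 and 0.631 RPKM, and the costimulatory genes Cd86 and Cd80 at 1.06 RPKM and 0.410 RPKM in the mean. Class II genes are expressed by dendritic cells, B cells, macrophages and liver endothelium, whose markers are given below, and what these contributed was not tested.

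Interferon-stimulated genes held 0.968 ± 0.0604%, 0.550% on relative reads, and had a median member at 22.0 RPKM. The members above 100 RPKM were Ifitm1, Ifitm2, Ifitm3 (543 ± 79.1 RPKM) and Bst2 (424 ± 27.3 RPKM), all with transcripts under 1 kb. The regulators Irf7 and Irf9 were at 99.2 ± 31.3 RPKM and 63.6 ± 15.0 RPKM and the ubiquitin-like Isg15 at 96.7 ± 18.4 RPKM. The antiviral genes Mx1 and Ifit1 were at 0.365, 0.807, 0.885 and 0.509 RPKM and 0.548, 1.25, 1.57 and 0.861 RPKM.

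Enzymes of lipid mediators were dominated by Alox5ap, the activating protein of 5-lipoxygenase, at 1047, 997, 1178 and 810.0 RPKM, which made up 85.3% of the summed level of the eicosanoid list. The lipoxygenase itself, Alox5, was at 28.0 ± 1.76 RPKM, the leukotriene A4 hydrolase Lta4h at 7.86 ± 2.26 RPKM and the leukotriene C4 synthase Ltc4s at 73.0 ± 20.2 RPKM. The inducible cyclooxygenase Ptgs2 was at 7.30, 36.4, 18.9 and 14.4 RPKM, with PBS 6 highest and PBS 5 lowest. In the lipid handling list (0.571 ± 0.0573%) Apoe, the apolipoprotein of macrophages and hepatocytes, was at 1674, 1531, 1216 and 1578 RPKM and the fatty acid carrier Fabp4, which endothelium also expresses, at 953, 617, 671 and 877 RPKM. Plin2, the coat of lipid droplets, was at 75.3, 86.6, 107 and 88.3 RPKM and Fabp5 at 195 ± 46.2 RPKM.

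Genes of neutrophil extracellular traps included Padi4, which citrullinates histones, at 24.7, 35.3, 43.6 and 22.2 RPKM and the pore-forming Gsdmd at 79.0, 70.7, 74.9 and 80.9 RPKM. The list's share (0.436 ± 0.0905%) came from the histone variants H3f3a (1079.9 ± 238 RPKM), H3f3b (581 ± 183 RPKM) and H2afz (344 ± 49.0 RPKM), which are expressed in all cells. Padi2 was at 0.781 ± 0.304 RPKM.

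Markers of other cell types were measured to describe what else the sorted libraries held. Sinusoidal endothelium stood out: 20 of 21 markers were at 1 RPKM or more, 14 of them at 100 RPKM or more, with a median marker at 214 RPKM and summed shares of 2.17, 1.91, 1.42 and 2.14% (2.39% on relative reads in the mean). Igfbp7 made up 36.9% of this sum. The endothelial lectin Clec4g was at 1509, 1155, 474 and 1362 RPKM, the matrix protein Sparc at 972, 1059, 1005 and 825 RPKM, and the endothelial growth factor-like Egfl7 at 615, 338, 350.1 and 507 RPKM. The junctional cadherin Cdh5 was at 238, 112, 143 and 210.3 RPKM, the hyaluronan receptors Stab2 and Lyve1 at 83.9, 71.4, 52.3 and 87.8 RPKM and 261, 90.4, 172 and 82.2 RPKM, and the VEGF receptor Kdr at 50.7, 40.8, 24.5 and 54.3 RPKM. PBS 7 was the lowest library in the summed share and in 10 of the 20 markers of at least 1 RPKM, against 25.6% of all genes of that level. Igfbp7, Clec4g, Stab2 and Kdr were among these 10. Egfl7 and Cdh5 were lowest in PBS 6, and Sparc and Lyve1 in PBS 8. Gpihbp1, a gene of capillary endothelium outside the list, was also lowest in PBS 7. In bulk libraries fewer cells of a type and less RNA per cell cannot be told apart. The gate on CD11b and Ly6G would leave endothelial cells out, and where these transcripts came from was not tested.

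Hepatocyte markers had shares of 0.165, 0.342, 0.162 and 0.238%, with PBS 6 the highest. Albumin, Alb, the most abundant message of hepatocytes, was at 31.6, 85.1, 29.7 and 42.0 RPKM, Apoa1 at 80.5, 126, 46.4 and 71.0 RPKM and the heme carrier Hpx at 25.2, 214, 60.7 and 90.6 RPKM. The small apolipoprotein Apoc1 led the list at 175, 232, 149 and 214 RPKM. The enzymes Cyp2e1, which converts acetaminophen to its toxic product, Cps1 and Cyp3a11 were at 2.71, 5.88, 1.95 and 3.78 RPKM, 0.260, 0.432, 0.0676 and 0.182 RPKM and 0, 0.585, 0 and 0.123 RPKM. Of the 23 hepatocyte markers of at least 1 RPKM, 19 had PBS 6 as their highest library, against 24.3% of all genes of that level.

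The monocyte list held 0.219% to 0.275% per library, of which Nr4a1, an immediate early gene as well, made up 81.0%. The defining monocyte genes Ccr2 and Cx3cr1, the latter the gene of the gate's reporter, were at 2.42 RPKM in the mean and 1.83, 1.76, 3.81 and 1.01 RPKM, and Ly6c2 was at 55.4, 35.9, 60.1 and 50.4 RPKM. Csf1r, the receptor of macrophage growth factor, was at 41.5, 57.2, 79.7 and 70.5 RPKM. Macrophage and Kupffer cell markers held 0.116% to 0.146%, with the complement genes C1qb, C1qa and C1qc at 155 ± 19.6 RPKM, 117 ± 13.8 RPKM and 76.3 ± 5.98 RPKM, Adgre1, the antigen F4/80, at 7.36, 21.9, 13.2 and 9.18 RPKM, and the Kupffer cell genes Clec4f and Timd4 at 9.34, 5.00, 4.07 and 10.2 RPKM and 0.665, 0.276, 0.691 and 0.348 RPKM.

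Lymphocyte markers were lower still. T and NK cell markers held 0.0135% to 0.0277%, of which the chemokine Ccl5 made up 74.2%, and the T cell receptor chain Cd3e was at 0.756, 1.25, 0.785 and 1.76 RPKM, with Klrd1 and Prf1 listed at 0 throughout. The B cell markers held 0.00348% to 0.00948%, and Cd79a and Ms4a1 were at 0.818, 4.07, 0.567 and 2.28 RPKM and 0, 0.292, 0 and 0 RPKM. Of the list for other granulocytes Hdc, which also stands in the identity list, made up 88.4%. Siglecf, of eosinophils, was at 10.4, 19.5, 15.7 and 12.4 RPKM. Of the genes of mast cells and basophils, Kit and Gata2, which progenitors also express, were at 14.0, 11.6, 10.4 and 12.8 RPKM and 8.70, 6.39, 10.1 and 14.5 RPKM, Mcpt8 at 1.72, 2.15, 1.79 and 0 RPKM, and Cpa3, Fcer1a and Cd200r3 were listed at 0 in all 4 libraries. In the dendritic cell list, which Bst2 dominated (84.3%), the transcription factors Irf8 and Batf3 were at 41.8 ± 4.76 RPKM and 23.5 ± 3.48 RPKM, Ccr7 at 4.59 ± 2.42 RPKM and Clec9a at 3.67 ± 0.569 RPKM. Flt3 was at 0.396, 0.411, 0.103 and 0.828 RPKM and Xcr1 at 0.0812, 0.0674, 0 and 0.0567 RPKM.

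Red cells had been lysed, and hemoglobin genes were nevertheless measured, Hba-a2 at 386, 361, 474 and 215 RPKM and Hbb-bs at 262, 389, 522 and 162 RPKM, with PBS 8 the lowest library and PBS 7 the highest for both. Hbb-b2 and Hbb-bt had identical values in each library (38.8, 50.4, 84.7 and 26.3 RPKM) and are 1 measurement. The platelet factor Pf4 was at 75.0, 116, 244 and 76.0 RPKM, with PBS 7 the highest, and 7 of 12 platelet markers were at 1 RPKM or more. Clec1b, listed as a platelet marker, was at 96.4, 82.6, 46.6 and 71.2 RPKM. It was highest in PBS 5 and lowest in PBS 7, the reverse of Pf4. The summed endothelial share had the same highest and lowest library as Clec1b, and which cells its RNA came from was not tested. The β3 integrin Itgb3 was at 12.8 ± 8.14 RPKM, while Ppbp and Gp9 were at 3.82 ± 0.958 RPKM and 2.28 ± 1.68 RPKM. Stellate cell and fibroblast markers held 0.00321% to 0.00545%, Col1a1 standing at 0.366, 1.97, 1.90 and 1.58 RPKM and Reln at 0 throughout. Cholangiocyte markers held 0.00714% to 0.0186%, with the defining Krt19 and Epcam at 0.323 RPKM and 0.203 RPKM in the mean and osteopontin, Spp1, which many cell types express, at 9.38, 57.0, 52.2 and 32.9 RPKM.

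**Figure D4:**
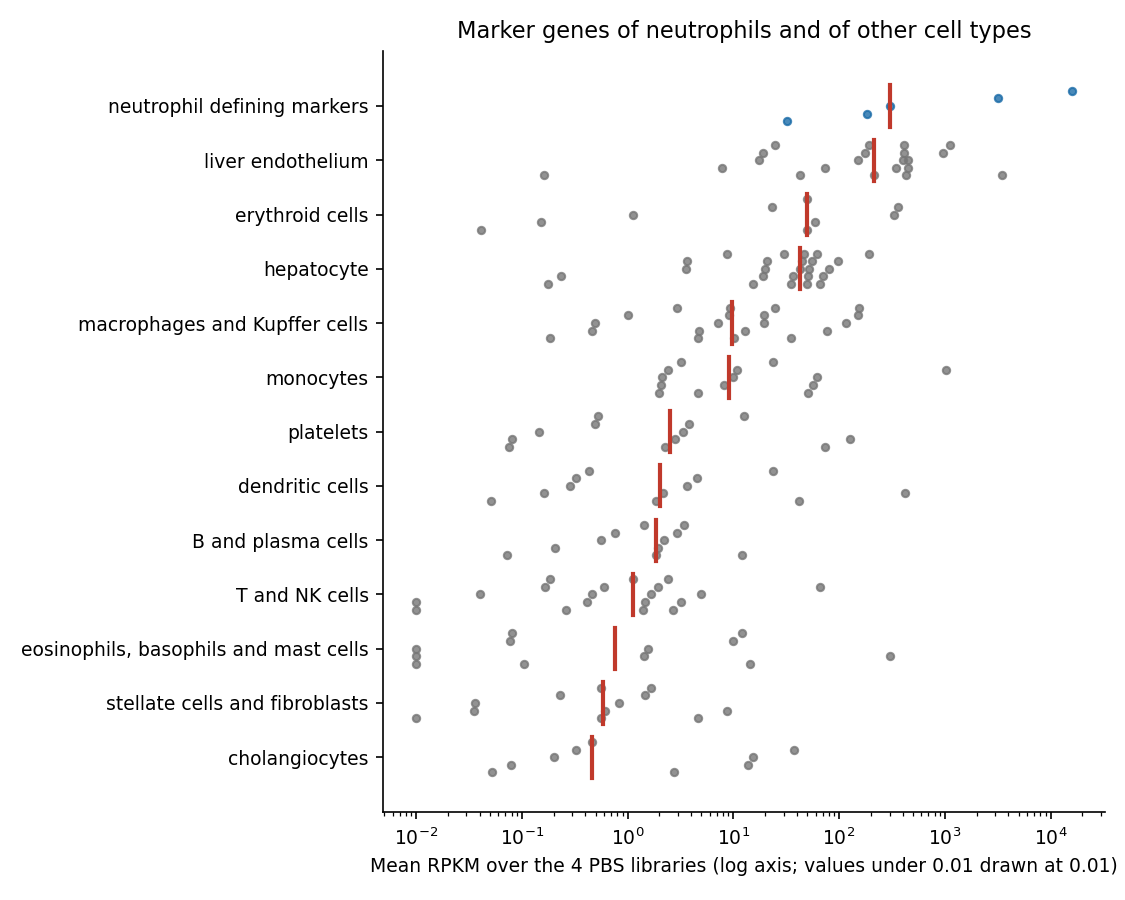
Mean RPKM over the 4 PBS libraries (x axis, log scale, values under 0.01 drawn at 0.01) of the marker genes of each cell type, 1 point per gene, with a red bar at the median of each list and neutrophil markers in blue. The endothelial list has its median at 214 RPKM, the closest of the other cell types to the 301 RPKM of the neutrophil markers, the hepatocyte median is 42.9 RPKM and the T and NK cell median 1.14 RPKM.

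Spread between the 4 livers was small for most genes. Over the 9749 genes of at least 1 RPKM the median SD of log2(RPKM + 1) was 0.26 and the median CV 21.2%, and 5878 genes (60.3%) had a CV under 25%, while 56 had a CV over 100%. The median CV was 29.7% in genes of 1 to 5 RPKM, where counting error from the estimated reads alone would give 19.7%, and 13.2% in genes of 1000 RPKM or more, where it would give 1.32%. Counting error is the only one these estimates cover, and reads without molecular identifiers of their own would make it larger.

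The order of the most variable genes opened with an acute phase pair. Among genes of at least 5 RPKM, 152 of 6012 differed by more than 4 times between their highest and lowest library. The serum amyloid genes Saa2 and Saa1, which hepatocytes make in the acute phase, led the order at 0, 41.8, 22.8 and 117 RPKM and 1.79, 59.9, 24.2 and 117 RPKM, lowest in PBS 5 and highest in PBS 8. They were followed by Mir678 (8.24, 0, 17.4 and 0 RPKM), the small proline-rich Sprr2a3 (0.0245, 30.7, 7.99 and 17.2 RPKM), Pth (9.58, 0.419, 0.524 and 18.0 RPKM) and the resistin-like Retnla (9.68, 13.1, 0 and 2.11 RPKM). Serum amyloid is near-identical between both genes, so the 2 values are not independent.

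Arg1, described above, was the variable gene of highest mean. Ccl24, an attractant of eosinophils made by macrophages, was at 4.21, 66.2, 9.92 and 14.1 RPKM, highest in PBS 6, and Ffar2, a receptor of short-chain fatty acids on neutrophils, at 0.768, 17.3, 1.73 and 4.29 RPKM, also highest in PBS 6. In 11 of the 20 most variable genes both PBS 6 and PBS 7 lay above both PBS 5 and PBS 8, as for the actin-capping Capza1 (3.06, 38.1, 43.5 and 9.50 RPKM), the proteasome subunit Psmd14 (3.52, 30.0, 32.2 and 6.06 RPKM), Mfsd14b (1.15, 14.7, 12.6 and 1.16 RPKM) and Smpdl3a (1.82, 16.8, 25.2 and 2.96 RPKM). Over the 6012 genes of at least 5 RPKM, 1110 (18.5%) had this order and 1615 (26.9%) the opposite one. The other members of the 20 were Sco2, Fam98c, Pno1, Tfpi2, Tm6sf1, Lpar6 and Uchl5, all with a mean under 10 RPKM. The 20 were picked by their spread over the same 4 libraries from which the first component was taken. Their order among libraries and their GC content are therefore not independent of that split. The median GC content of the 19 with a known sequence was 46.0%, against 52.2% over the 5831 genes of at least 5 RPKM with one.

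Each library was also the highest for many genes of some lists, which is a count of genes and not a summed share. Over all 9749 genes of at least 1 RPKM, PBS 5, PBS 6, PBS 7 and PBS 8 were the highest library of 22.5, 24.3, 20.6 and 32.5%. PBS 5 was the highest library of 59 of 81 ribosomal protein genes and PBS 7 of 4. PBS 7 was the highest of 20 of 26 genes of glycolysis and hypoxia, 18 of 29 neutrophil identity genes and 7 of 10 gelatinase granule genes, and of 0 of 20 endothelial and 0 of 23 hepatocyte markers. The summed share of glycolysis and hypoxia was highest in PBS 7 too. Those of the identity and gelatinase lists were highest in PBS 5 (9.50% and 1.23%, against 9.38% and 1.12% in PBS 7). PBS 6 was the highest of 6 of 8 genes of eicosanoid synthesis, beside the hepatocyte markers given above. By summed share, however, eicosanoid synthesis was highest in PBS 7 (0.275%, against 0.256% in PBS 6). PBS 8, the highest of the largest number of genes, was highest for 7 of 12 genes of MHC class I presentation. It was highest for 9 of 23 interferon-stimulated genes (39.1%, against 32.5% of all genes), 1 of 23 chemokine and cytokine messages and 2 of 29 identity genes. PBS 8 was not the highest library by the summed share of MHC class I (1.41, 1.42, 1.28 and 1.31%) or of interferon-stimulated genes (0.941, 0.916, 1.05 and 0.961%). Genes of a list share a library and its composition, a share taken by one list lowers the others, and 1 library does not speak for a group, so these counts describe 4 livers.

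At the steady end, the 10 least variable genes among the 1318 of at least 50 RPKM had CVs of 1.07% to 2.55%. The G protein subunit Gngt2 was at 452, 444, 441 and 446 RPKM, the RNA-binding Lsm4 at 166, 163, 163 and 161 RPKM and the autophagy protein Map1lc3b at 338, 343, 349 and 339 RPKM. The others were Kdelr1, Cct2, Txnip, Polr2l, Atp6v1e1, Mea1 and Psmc4. All 10 CVs are below the median counting error of their level, 4.87% at 50 to 100 RPKM and 3.30% at 100 to 500 RPKM, and with 4 libraries the lowest of many CVs are low in part by selection.

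**Figure D5:**
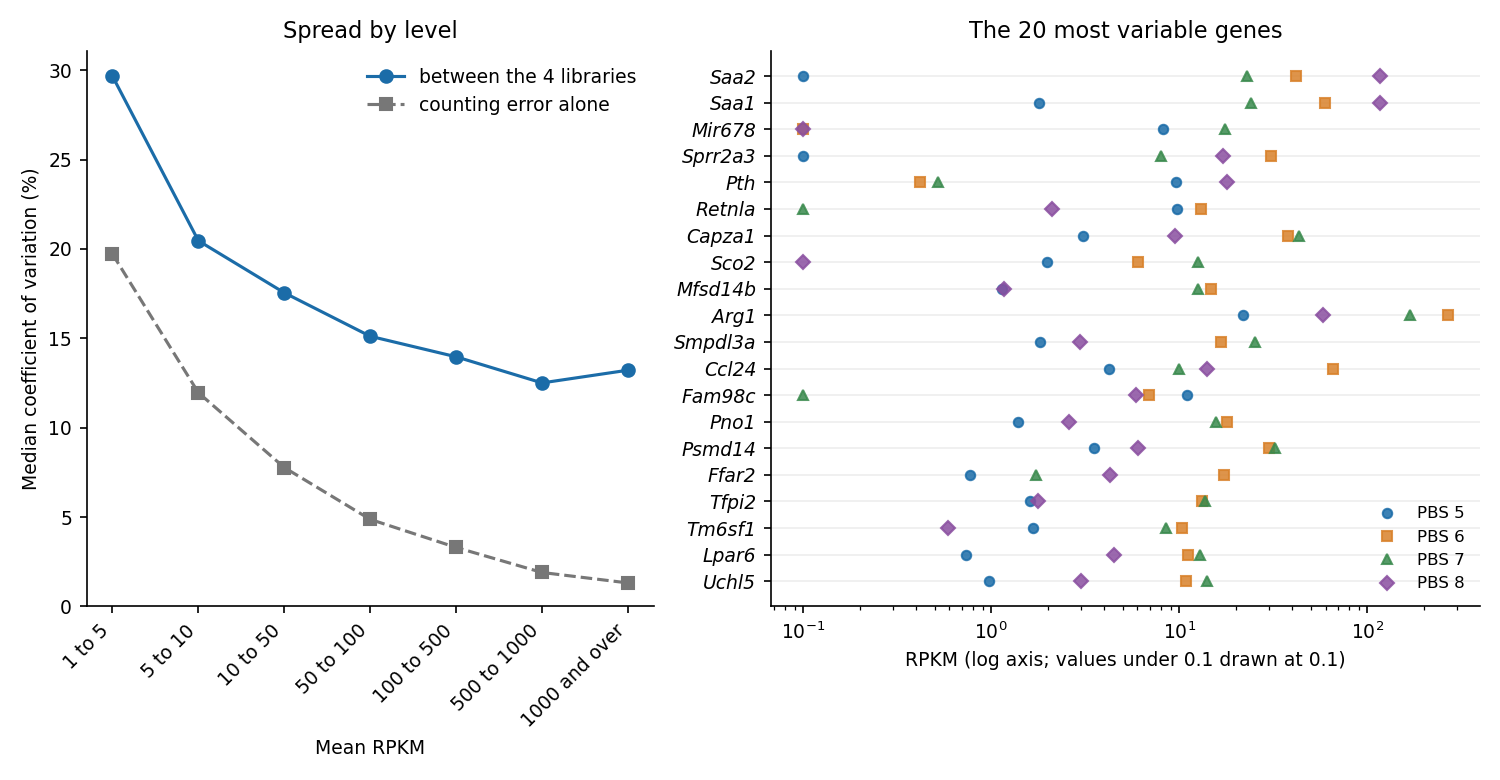
Left, median CV (y axis, %) of genes in 7 classes of mean RPKM (x axis), between the 4 PBS libraries (solid) and as counting error alone would give (dashed). Right, RPKM (x axis, log scale, values under 0.1 drawn at 0.1) of the 20 most variable genes of at least 5 RPKM, 1 symbol per library. The CV falls from 29.7% to 13.2% while counting error falls from 19.7% to 1.32%, and in many of the genes on the right PBS 6 and PBS 7 lie together above PBS 5 and PBS 8.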

How the data were processed

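Neutrophils were sorted from livers 24 h after APAP and sequenced from the 3′ ends of their transcripts, and only the 4 PBS libraries of 7 were analyzed. Per the study's methods, reads were aligned by the authors against mm9 using HISAT 0.1.5, passed through SAMtools and summarized per gene as RPKM in Partek 6.6, and the deposited table holds these RPKM values. The gene annotation, the use of molecular identifiers and the treatment of reads with several positions are not given in the sources used here. The labels place the libraries in their group, and 0 columns belonged to no sample.

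Genes were ranked by mean RPKM over the 4 libraries, and shares, SD and CV were computed per library or over the 4 (Python 3.11.15, numpy 2.4.6, pandas 2.3.3). Spread was the SD of log2(RPKM + 1), with a pseudocount of 1, in genes of at least 1 RPKM. Transcript length and GC content came from GENCODE on mm9 for 15499 of 16047 genes, which hold 98.4% of the summed RPKM, and relative reads are RPKM times this length. Each length was that of the gene's longest annotated transcript. Promoters came from RefSeq on GRCm38.p6, for genes with 1 entry. No groups were compared, and no test was made other than Dixon's criterion for an outlying library. The 29 function and pathway and 13 cell type lists and all rules were chosen with earlier results of these data known. Text names the 30 highest genes (2 of them, and 3 list members, are not reported here), the neutrophil markers, up to 6 of the highest members per list and members at 0, the 20 most variable genes of at least 5 RPKM, the 10 least variable of at least 50 RPKM and those high only by relative reads. Other list members, such as Cybb, Mpo and Il6, were named after their values were seen. List members that were not in the table were left out. Ranking, shares, depth and spread were first tested on simulated data. Alternatives were relative reads, rescaling, leaving out ribosomal genes, the highest gene or 1 library, other thresholds and pseudocounts. The MC-21 columns were not used here.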

Additional observations from a re-analysis of the deposited data

Results flagged for a closer look

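In 23 of 367 values examined, 322 named genes and the shares of the lists, 1 library stood apart from the other 3 by more than Dixon's 95% critical value for 4 samples. In 7 of the 23 the other 3 libraries were at 0, which meets the criterion by construction, and 16 remained without them. Chance alone flags about 1 in 20, and the 16 are no larger a share than that. The genes examined also include those picked for a large spread. The values below are therefore a description and not results about single genes or libraries. The extreme library was PBS 6 or PBS 7 in 8 values each, PBS 8 in 4 and PBS 5 in 3, and without those 7 values PBS 6 in 5, PBS 7 in 6, PBS 8 in 2 and PBS 5 in 3.

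The share of Fc receptor genes was 0.618% in PBS 6 against 0.505% to 0.520% in the others, and the share of growth and repair factors was 0.178% in PBS 7 against 0.156% to 0.159%. Ifitm1 reached 2721 RPKM in PBS 7 against 1914 to 1976 RPKM, and Eno1 3.87 RPKM against 2.78 to 2.89 RPKM. Stfa1 was also highest in PBS 7, at 8.65 RPKM against at most 1.73 RPKM. In the same library C1qc was low, at 67.4 RPKM against 78.1 to 79.9 RPKM, and Hgf was low, at 1.18 RPKM against 2.01 to 2.10 RPKM.

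In PBS 6, Ccl24 was at 66.2 RPKM against at most 14.1 RPKM in the others, Slc40a1 at 18.6 RPKM against at most 6.90 RPKM, and Lta4h at 11.2 RPKM against at most 7.28 RPKM. Tnfrsf1a was low there, at 258 RPKM against 274 to 276 RPKM, a gap that is small beside its level. PBS 8 had the lowest Zfp36, at 1462 RPKM against 1969 to 2037 RPKM, and the highest Cxcr4, at 224 RPKM against 172 to 175 RPKM. PBS 5 had the lowest Cst3, at 711 RPKM against 872 to 903 RPKM, and the highest Rps15a, at 6.71 RPKM against at most 3.01 RPKM.

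The remaining values were near the lowest levels that the table holds. Il12a was at 1.32 RPKM in PBS 5 against at most 0.219 RPKM. The others were listed above 0 in 1 library only, which were Il6 (1.32 RPKM), Ms4a1 (0.292 RPKM) and Gata1 (0.158 RPKM) in PBS 6, Il12b (0.300 RPKM) and Fasl (0.194 RPKM) in PBS 7, and Ctsg (0.253 RPKM) and Mpo (0.198 RPKM) in PBS 8.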

How the results depend on the processing

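The share of the 100 highest genes (42.2%) was 30.0% on relative reads and 40.4% without S100a9, and 41.7% to 42.8% with 1 library left out. The share of neutrophil identity genes (8.45%) was 4.63% on relative reads, 9.63% without ribosomal protein genes, 5.38% without S100a9, and 8.10% to 8.80% with 1 library left out. The share of endothelial markers (1.91%) was 2.39% on relative reads and 1.82% to 2.07% with 1 library left out. Of the 30 highest genes 18 were kept on relative reads and 27 to 30 with 1 library left out. Counting genes above 0 in the mean gave 15281 in place of 9749, and leaving out 1 library gave 9697 to 9772. The median log2 SD (0.26) was 0.30 with a pseudocount of 0.1, 0.24 for genes of at least 5 RPKM, 0.22 for all genes and 0.24 to 0.25 with 1 library left out, which the smaller number of libraries lowers. Among the other shares, those of 34 of 40 moved by more than 1 SD on relative reads, 22 of 39 without ribosomal protein genes, 4 of 40 without S100a9 and 0 of 160 with 1 library left out. No paired analysis was possible because only 1 group was described. Depth, at an estimated 2.66 to 3.96 reads per RPKM and kb, limits what can be said of genes under 1 RPKM, and values of 0 there are listed values, not absence.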

Other observations

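The summed RPKM was also split by the class that the annotation gave each gene, which does not separate messenger RNA from other RNA. The ribosomal protein gene Rpl41 (1.03% of the sum) was not matched. Rpl37rt (0.423%) was classed as a processed transcript, and the transcription factor Cebpd as a pseudogene. Protein-coding genes took 95.8 ± 0.174% of the summed RPKM, annotated pseudogenes 1.60 ± 0.0968%, genes not matched to the annotation 1.59 ± 0.0324%, processed transcripts 0.594 ± 0.0435%, genes named as miRNA 0.264 ± 0.0202% and long intergenic RNA 0.196 ± 0.0122%. In 5 pairs of genes, among them Hbb-b2 with Hbb-bt, both genes had identical values in all 4 libraries, so that the table holds 1 measurement under 2 names.

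In 2 pathways, interleukin-1 processing and leukotriene synthesis, the RNA of the parts stood at unequal levels. Caspase-1 was listed at 0.480 RPKM in the mean while its substrate Il1b stood at 7000.2 RPKM and the caspase-11 gene Casp4 at 33.8 ± 5.54 RPKM. Alox5ap exceeded 1000 RPKM in 2 of 4 libraries (1047, 997, 1178 and 810.0 RPKM), beside 28.0 ± 1.76 RPKM for the enzyme it serves. These are differences between genes per length, with transcripts of unequal length and unequal sharing of reads, and no explanation was tested. On relative reads Alox5ap was at 859 and Alox5 at 100, a smaller ratio than per length.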
